A study of Arabidopsis thaliana with 21 samples.

Results

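The effect of a compound called only A on Arabidopsis seedlings that also received auxin was examined by setting the arrays of seedlings given IAA plus A (n = 3) against those of seedlings given IAA alone (n = 4). Both groups were chosen by their titles, and these 7 arrays are part of a series of 21. IAA is indole-3-acetic acid, the main natural auxin. The series, whose title names a chemical search for inhibitors of auxin-driven transcription, used ATH1 arrays, which carry 22810 probe sets. Setting aside 64 controls, 22746 could be tested.

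IAA plus A means 5 µM IAA with 10 µM A, and IAA means 5 µM IAA. The other groups used here were 10 µM A (n = 4) and the solvent DMSO (n = 4), and 5 µM IAA with 10 µM of a compound called only B (n = 3) and 10 µM B alone (n = 3). All seedlings were 7 days old, were raised in light in liquid culture and were treated for 1 h; per the experiment information files they were of the Col-0 background. They were sampled whole, so a lower signal cannot be told apart from fewer cells of a type. A and B are known only by these letters, so no structure is given. Whether the arrays within a group represent independent cultures is not stated, so p-values may measure technical spread.

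Auxin acts by bringing Aux/IAA repressor proteins to a ubiquitin ligase for destruction, which frees ARF transcription factors to switch on target genes. Among the fastest targets are the Aux/IAA genes themselves, the GH3 enzymes that conjugate free auxin to amino acids, the small auxin-up RNAs, and LBD factors such as LBD16 and LBD29 that start lateral roots. Plants meet foreign chemicals with another rapid programme, in which glutathione transferases and glucosyltransferases tag the compound for storage in the vacuole.

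The values are log2 signals, so a difference of 1 is a 2-fold change. Differences are IAA plus A minus IAA with their standard errors (SE), from limma with 1 mean per group over all 21 arrays, and adjusted p-values were taken over all 22746 probe sets with a threshold of 0.05. The median SD of a probe set was 0.0918 among the IAA plus A arrays and 0.0895 among the IAA arrays, against 0.153 among the DMSO arrays. Only probe sets that the platform table pairs with exactly 1 gene (13513 of those tested) are named by gene, and loci without a symbol in RefSeq are given by locus tag with no role. Members of the gene lists below were matched by symbol or synonym, and those so matched are called measured. A listed gene that RefSeq gives only by locus tag is not counted, although its probe set may have been tested.

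The description inside the experiment information file of the array titled IAA 2 names treatment with 10 µM B, whereas those of the other 20 arrays match their titles. The signals of IAA 2 resembled the other IAA arrays: its correlation across probe sets was 0.998 with their mean and 0.976 with the mean of the B arrays, and the median absolute difference was 0.0772 and 0.144. GH3.3, which is raised by auxin, read 13.31 on IAA 2 and between 12.79 and 13.23 on the other IAA arrays. The array was kept under its title, and leading counts are also given without it. IAA 1 and IAA 2 also lay together above IAA 3 and IAA 4 at 20.7% of all probe sets, and far more often among auxin-induced ones (below). Several results on auxin-induced genes are therefore given without both as well.

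With A, 2065 probe sets (9.08%) differed in auxin-treated seedlings, of which 1088 rose (4.78% of those tested) and 977 fell (4.3%). The rises were larger than the falls. Among called probe sets the median difference was 0.85 for rises and -0.47 for falls, and 463 rose at least 2-fold (2.04%) while 78 fell at least 2-fold (0.343%). At 8-fold or more there were 59 rises and 2 falls. Over all probe sets the differences ran from -3.16 to 5.25 with a median of -0.03. Without IAA 2 the counts were 924 higher and 596 lower, and without both IAA 1 and IAA 2 they were 772 higher and 318 lower, with 452 at least 2-fold higher and 35 at least 2-fold lower. The split between directions also depended on which other arrays informed the variance: with only the arrays of the groups compared it was 1897 higher and 2764 lower. The count of rises of at least 2-fold lay between 423 and 476 when any single array was left out. Signals of the groups did not overlap at 31.3% of all probe sets (11.7% higher and 19.7% lower in IAA plus A), which is the background for the separations given below.

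**Figure D1:**
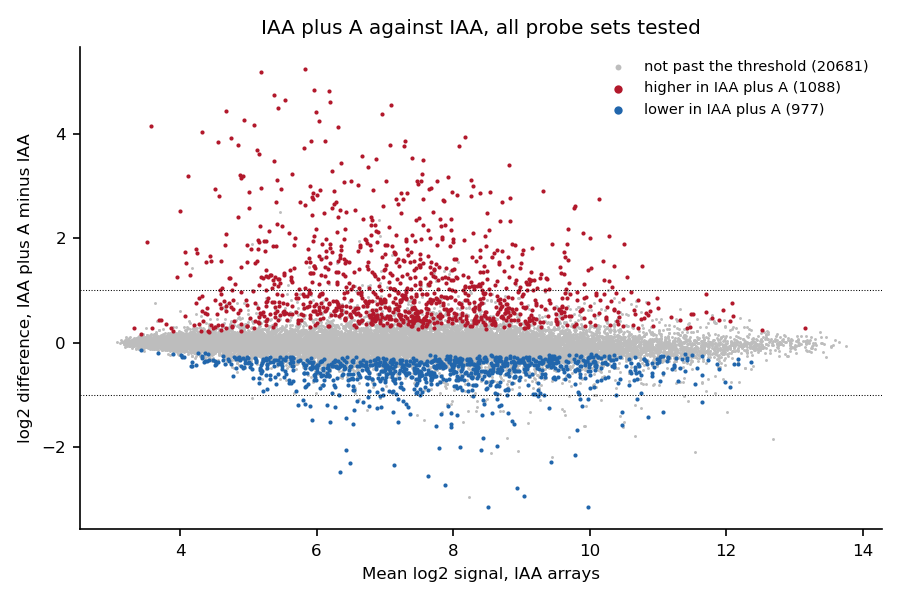
Log2 difference between IAA plus A and IAA for every probe set tested, against its mean log2 signal in the IAA arrays; dotted lines mark 2-fold. Large rises (red, 1088 called) reach 5.25 and are most frequent at middle signal, while falls (blue, 977 called) end at -3.16.

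Large rises were most frequent at middle signal under IAA. When the probe sets were ranked by their mean in the IAA arrays and divided into 4 equal bins, 60 of those called at least 2-fold higher lay in the bin of lowest signal, 189 and 144 in the middle bins and 70 in the highest. The falls of at least 2-fold numbered 0, 27, 26 and 25 in the same order. The lowest bin spanned mean signals of 3.07 to 5.27, which left little room for a 2-fold fall. The ranking also uses the IAA arrays that enter the difference.

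The largest named rise was GRX480, a CC-type glutaredoxin that binds TGA transcription factors. Its signals were 10.22, 10.43 and 9.94 in the IAA plus A arrays, against 6.19, 5.18, 5.37 and 5.38 in the IAA arrays. The groups lay far apart, and the difference was 4.66 ± 0.20 (limma adjusted p = 2.67e-12). AT1G05575 followed with 4.55 ± 0.29 and AT4G27654 with 4.45 ± 0.29, and AT1G53540 with 4.43 ± 0.51. Of 41 genes of the redox and glutathione list 7 were measured, with a median of 0.22. Of these 2 rose, GRX480 and NDB2, an external NAD(P)H dehydrogenase of mitochondria (0.85 ± 0.16), and none fell. Over all probe sets 4.78% rose and 4.3% fell, which is the background for this count and those of the lists below. Each count covers only the measured part of its list.

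Of 36 listed calcium sensors and touch genes 6 were matched by name, and of these 3 rose and none fell. CML37, a calmodulin-like protein, read 7.79, 7.59 and 7.84 in IAA plus A, against 4.04, 3.53, 3.26 and 3.47 in IAA, a difference of 4.17 ± 0.18 (adjusted p = 3.24e-12). CML38, of the same family, read 9.62, 9.81 and 7.26 in IAA plus A, against 6.31, 5.09, 6.11 and 6.08 in IAA. The third IAA plus A array lay well below its partners for CML38 yet above every IAA array, and the difference was 3.00 ± 0.48 (adjusted p = 0.000246). CML23 rose by 1.71 ± 0.22. The other 3 members of this list matched by name, CML41, CML42 and CML43, had differences of -0.16, 0.25 and -0.34 that did not pass.

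Genes that conjugate foreign compounds were raised in part. Of 64 listed UDP-glucosyltransferases 41 were measured, and of these 11 rose and 1 fell, with a list median of 0.10. UGT73B4, which glucosylates flavonols and other small molecules, read 8.59, 8.52 and 8.10 in IAA plus A, against 4.76, 4.52, 4.49 and 4.43 in IAA (3.85 ± 0.21, adjusted p = 8.41e-11). UGT73B5 rose by 3.79 ± 0.26 and UGT73B1 by 2.59 ± 0.22; no array of either gene in one group reached the other. GT72B1, known to glucosylate chlorinated phenols and anilines, rose by 1.52 ± 0.13, UGT74D1 by 1.37 ± 0.24 and UGT87A2 by 1.57 ± 0.27. The exception was UGT76B1, an enzyme of defence signalling, which fell by 0.72 (SE 0.19). The other risers were UGT73C1 (0.89), UGT76E11 (0.82), UGT71C3 (0.71), UGT84A1 (0.49) and UGT76E12 (0.36).

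Of 45 listed glutathione transferases 11 were measured, and of these 3 rose and none fell, with a list median of 0.04. GSTU25, of the plant-specific tau class, read 10.08, 9.90 and 9.74 in IAA plus A, against 7.49, 7.07, 6.96 and 7.12 in IAA (2.75 ± 0.18, adjusted p = 1.11e-09). GSTU22 rose by 1.97 ± 0.23 and GSTU16 by 0.70 ± 0.17. AER, an alkenal reductase that removes reactive carbonyls, was the only riser of 4 probe sets in the other detoxification list (1.87 ± 0.15). CCR2, here the cinnamoyl-CoA reductase of lignin synthesis, rose by 3.48 ± 0.14: its signals were 8.96, 8.99 and 8.62 in IAA plus A, against 5.40, 5.21, 5.47 and 5.42 in IAA.

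**Figure D2:**
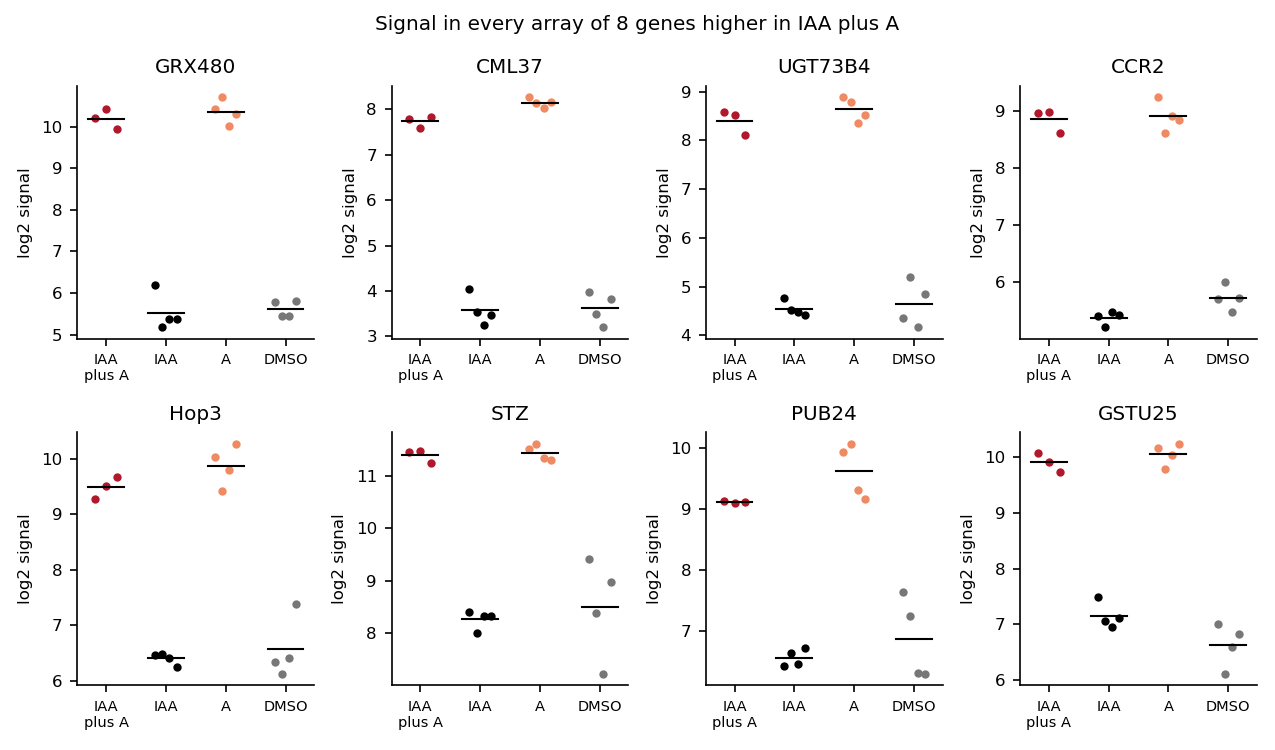
Log2 signal in every array (points) and group mean (bar) for 8 genes that were higher in IAA plus A, in the IAA plus A, IAA, A and DMSO groups. Every IAA plus A array lies above every IAA array, and the A arrays lie near the IAA plus A arrays.

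Some chaperones and their partners rose as well. Of 53 listed members 5 were measured, and of these 4 rose and none fell, beside 4.78% and 4.3% of all probe sets. Hop3, which hands client proteins between HSP70 and HSP90, read 9.27, 9.51 and 9.66 in IAA plus A, against 6.47, 6.49, 6.41 and 6.25 in IAA (3.08 ± 0.29, adjusted p = 2.1e-07). Its relatives differed: Hop2 rose by 0.48 ± 0.10, while Hop1 had a difference of -0.06 that did not pass. AT5G48570, the heat-induced FKBP-type immunophilin ROF2, rose by 2.82 ± 0.32 and Hsp70-2 by 0.66 ± 0.16. ATHSP22.0, the one member of the small heat shock protein list matched by name, read 9.30, 9.55 and 8.48 in IAA plus A, against 6.68, 7.21, 6.72 and 6.81 in IAA (2.26 ± 0.44, adjusted p = 0.00189). Members given only by locus tag were not counted, so this list does not describe the family.

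Some rapid stress regulators followed the same direction. Of 77 listed transcription factors 6 were measured, and of these 4 rose and none fell. STZ, the zinc-finger repressor also called ZAT10, read 11.45, 11.48 and 11.25 in IAA plus A, against 8.41, 8.0, 8.33 and 8.34 in IAA (3.125 ± 0.30, adjusted p = 3.38e-07). WRKY6 rose by 1.97 ± 0.23 and WRKY22 by 1.06 ± 0.30, and WRKY22 lost the threshold in 6 of 29 alternatives. ORA47, an ERF-type activator of jasmonate synthesis, rose by 1.15 ± 0.24; its IAA plus A arrays were spread over 7.35, 6.65 and 5.84, against 5.53, 5.42, 5.34 and 5.55 in IAA.

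Of 26 listed U-box and RING ubiquitin ligases 8 were measured, and of these 4 rose and none fell. PUB24, which with PUB22 and PUB23 dampens immune signalling, read 9.14, 9.10 and 9.12 in IAA plus A, against 6.43, 6.64, 6.47 and 6.72 in IAA (2.55 ± 0.26). PUB23 rose by 1.99 ± 0.28, PUB22 by 1.55 ± 0.20 and PUB25 by 0.63 ± 0.14. PUB26, PUB19, XERICO and BRH1 did not pass, with differences of 0.07, 0.44, -0.19 and -0.15.

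Of the 29 gene lists, 28 had at least 1 measured member. Of 4 abscisic acid genes 1 fell, COR15B (-0.29), and of 4 flavonoid and phenylpropanoid genes 1 rose, CCR2. Lists of ethylene, salicylate, cytokinin, brassinosteroid and gibberellin, proteasome, root hair, glucosinolate, cell cycle and ribosome genes had 1 to 3 measured members each and none past the threshold. Seedling composition was followed through marker genes. Both measured shoot markers, RCA and LHCB4.1, had differences of 0.03 and -0.00. The 5 measured root markers, among them the root glucosidase PYK10 (-0.09) and the root-hair expansins EXPA7 (-0.31) and EXPA18 (-0.47), were all below 0 and none passed. The mean signal of the root markers was 10.66 to 10.93 in IAA plus A, against 10.97 to 11.18 in IAA, and whether this bears on the falls was not tested.

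Auxin-regulated genes did not respond to A as one block. The deepest fall of any named gene was LBD29, which initiates lateral roots downstream of ARF7 and ARF19. It read 6.66, 6.64 and 7.15 in IAA plus A, against 10.65, 10.14, 9.58 and 9.53 in IAA. The groups were separated by more than 2 units, and the difference of -3.16 ± 0.23 is an 8.95-fold fall (adjusted p = 7.64e-09). In the arrays without added auxin LBD29 read 5.71, 5.32, 5.67 and 5.75 with A, against 6.16, 5.55, 6.20 and 6.38 with DMSO, so the IAA plus A arrays still lay above both of these groups. LBD16, its close relative, read 7.69, 7.76 and 8.09 in IAA plus A, against 9.20, 9.06, 8.34 and 8.44 in IAA. LBD16 had a difference of -0.91 ± 0.17 (adjusted p = 0.00172), and no IAA plus A array reached the IAA arrays. HAT2, the third measured gene of that list and an HD-ZIP II factor, read 11.15, 11.23 and 11.36 in IAA plus A, against 11.61, 11.66, 11.10 and 11.01 in IAA. Its difference of -0.10 had a 95% interval from -0.44 to 0.24.

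Of 12 listed GH3 enzymes 5 were measured, and of these 2 fell and 1 rose, beside 4.3% and 4.78% of all probe sets. GH3.1 read 6.69, 6.97 and 7.20 in IAA plus A, against 7.97, 8.35, 7.09 and 7.29 in IAA, a fall of 0.72 (SE 0.21, adjusted p = 0.0347) whose groups overlapped. WES1, also called GH3.5, fell by 0.63 (SE 0.18, adjusted p = 0.0327). GH3.9 rose by 0.42 ± 0.12 from a low signal. GH3.3 read 12.96, 13.01 and 13.00 in IAA plus A, against 13.23, 13.31, 12.79 and 12.85 in IAA, with a difference of -0.06 and a 95% interval from -0.32 to 0.21. With IAA 1 and IAA 2 left out the GH3.1 and WES1 differences were -0.24 and -0.26 (adjusted p = 0.439 and 0.449), and GH3.3 and HAT2 turned to 0.17 and 0.19, neither past the threshold. LBD29 remained past the threshold at -2.74 (adjusted p = 1.57e-07) and LBD16 at -0.54 (adjusted p = 0.0435).

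None of the 7 measured Aux/IAA repressor genes passed, and their median was -0.05. IAA29 read 9.41, 9.27 and 8.83 in IAA plus A, against 9.59, 9.79, 9.21 and 9.32 in IAA, and its 95% interval of -0.79 to 0.18 does not exclude a modest fall. IAA30 had a difference of 0.26 with an interval from -0.12 to 0.64; without IAA 1 and IAA 2 it was 0.64 (adjusted p = 0.0165). Most Aux/IAA genes, 21 of 28 listed, were not matched by name to a probe set with exactly 1 gene. AT2G18010, the small auxin-up RNA SAUR10 and the only measured member of its list, had a difference of -0.38 that missed the threshold. WAG2, a kinase of auxin transport, had -0.74 (adjusted p = 0.078), and of 6 cell wall loosening genes only the expansin EXPA15 passed, with a fall of 0.54 (SE 0.13).

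**Figure D3:**
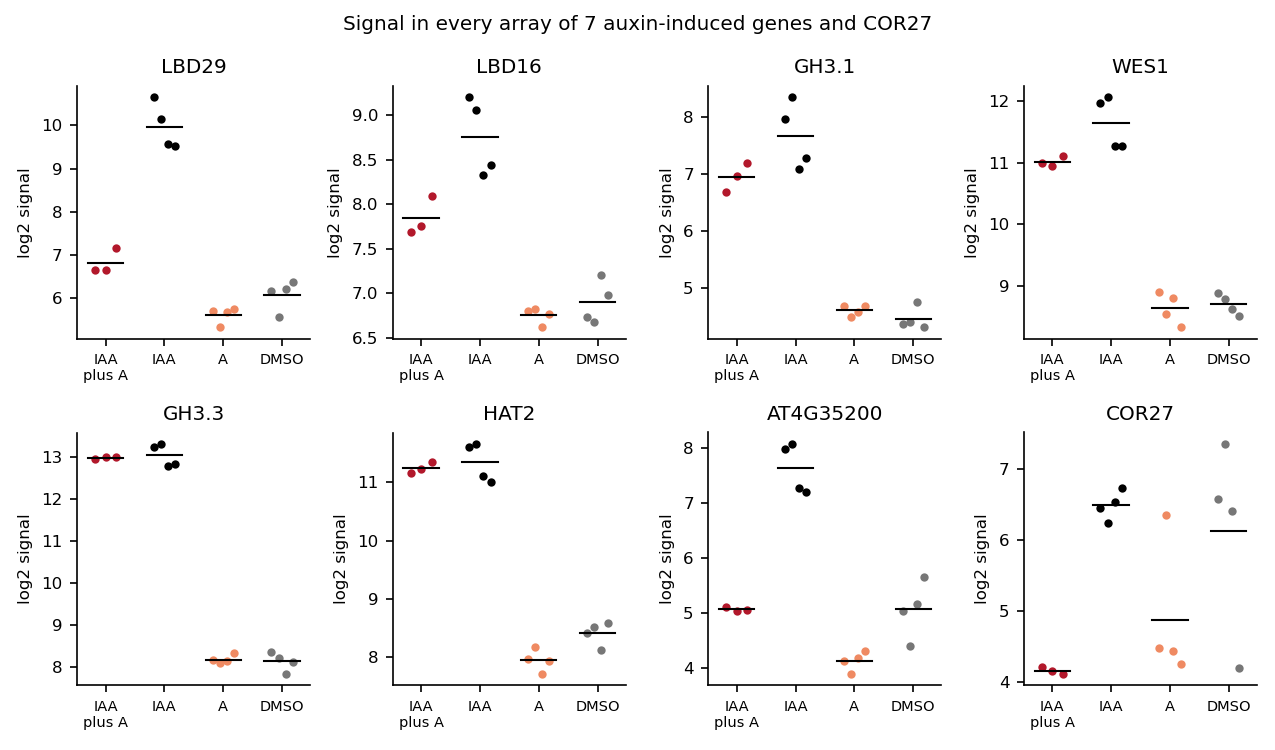
Log2 signal in every array (points, in replicate order) and group mean (bar) for 7 auxin-induced genes and the cold-regulated COR27 in the IAA plus A, IAA, A and DMSO groups. LBD29 and AT4G35200 are lower in every IAA plus A array than in every IAA array while GH3.3 and HAT2 overlap, and IAA 1 and IAA 2 lie above IAA 3 and IAA 4 in the 7 auxin-induced genes.

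A wider view came from 137 probe sets (0.602%) called at least 2-fold higher in IAA plus B than in B alone. That difference uses none of the 7 arrays compared here, but these arrays entered the shared variance behind the calls. The set holds only probe sets whose auxin response was present with B. It thus leaves out others that auxin raised over DMSO, such as AT1G64405, AT2G28690 and AT3G09280 (described below). Their median difference between IAA plus A and IAA was -0.06, with the middle of the distribution between -0.31 and 0.13, beside -0.03 over all probe sets. Of the 137, 16 fell and 4 rose past the threshold, where 4.3% of all probe sets fell and 4.78% rose. These counts are given with all 4 IAA arrays only. Without IAA 1 and IAA 2, GH3.1 and WES1 among these falls missed the threshold. LBD29, AT4G35200, AT4G35210, AT3G26760 and LBD16 still passed. Below 0 were 78 of the 137 and above it 59, beside 13326 and 9420 of all 22746. The response of this set to auxin had a median of 1.32 with A (IAA plus A against A) and 1.36 without it (IAA against DMSO), values that hold for this choice of probe sets. By array, the median signal of the set was 8.18, 7.99 and 8.36 in IAA plus A, against 8.56, 8.67, 8.09 and 8.12 in IAA. IAA plus A 1 and IAA plus A 3 lay above IAA 3 and IAA 4 and below IAA 1 and IAA 2, IAA plus A 2 lay below all of them, and the array spread of this median (pooled SD 0.26) exceeded the difference. IAA 1 and IAA 2 were above IAA 3 and IAA 4 at 129 of the 137 probe sets. Without these arrays the set's median was 0.20, without IAA 2 alone 0.04, and so its sign is not settled.

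**Figure D4:**
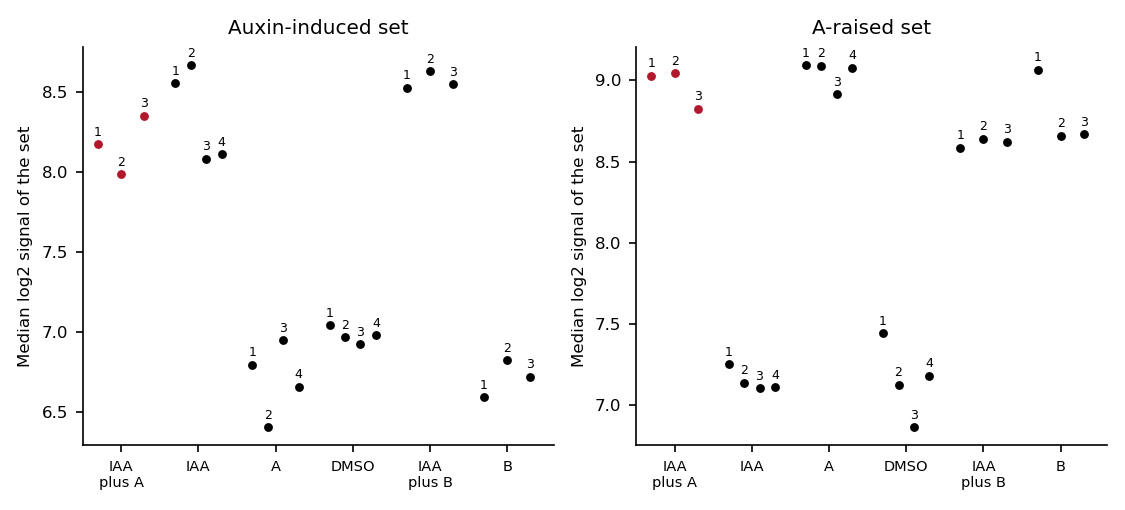
Median log2 signal by array (points, numbered by replicate) of 137 auxin-induced probe sets chosen in IAA plus B against B (left) and of 487 probe sets raised by A and chosen in A against DMSO (right), in the IAA plus A, IAA, A, DMSO, IAA plus B and B groups. On the left the IAA plus A arrays overlap the IAA arrays; on the right they lie far above them.

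The 16 called falls of the set were uneven in size. LBD29 and a probe set with no gene in the platform table both had -3.16. The neighbouring genes AT4G35200 and AT4G35210 had -2.57 ± 0.22 and -2.06 ± 0.24. AT4G35200 read 5.10, 5.03 and 5.05 in IAA plus A, against 7.97, 8.07, 7.28 and 7.20 in IAA, and 5.04, 4.40, 5.16 and 5.65 in DMSO. The IAA plus A arrays thus lay inside the range of the DMSO arrays. The remaining falls of the set ran from -1.56 to -0.52 and included AT2G17080, AT3G26760, BAT1, LBD16, SETH6, GH3.1 and WES1. The 4 rises were AT3G50560 (0.51) and 3 probe sets without a gene, the largest of them 1.88.

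Outside the auxin set the largest named falls were AT5G62360 (-2.94 ± 0.63), AT4G16146 (-2.79 ± 0.87), AT1G64405 (-2.75 ± 0.24) and AT1G07050 (-2.48 ± 0.63). AT1G64405 was itself raised by auxin: it read 8.24, 8.47, 7.34 and 7.45 in IAA, against 6.33, 5.32, 5.95 and 5.64 in DMSO (2.06 ± 0.22, adjusted p = 6.28e-06), a comparison that shares the IAA arrays. It lies outside the set because IAA plus B did not raise it over B (0.26, adjusted p = 0.872). COR27, a cold-regulated gene under clock control, read 4.21, 4.16 and 4.12 in IAA plus A, against 6.45, 6.24, 6.53 and 6.73 in IAA (-2.32 ± 0.61, adjusted p = 0.0201). GI, the clock gene GIGANTEA and the other measured member of the list, had -0.75 and did not pass (adjusted p = 0.218). PDF1.2, a plant defensin of the jasmonate list, read 5.56, 7.33 and 5.39 in IAA plus A, against 8.13, 8.17, 8.05 and 8.08 in IAA (-2.02 ± 0.60, adjusted p = 0.0419), and its relative PDF1.2b, whose probe set can also bind similar transcripts, had -1.51 ± 0.40. Without IAA 1 and IAA 2, several of these falls missed the threshold while their sizes moved little. The differences were then -2.80 for AT4G16146 (adjusted p = 0.190), -2.58 for AT1G07050 (0.0759), -2.46 for COR27 (0.0832), -1.97 for PDF1.2 (0.186) and -1.49 for PDF1.2b (0.117). AT4G30650 had -2.14 (0.0626) and AT4G30660 -1.72 (0.112), and AT2G39920, AT1G53035, AT4G34950 and AT4G22610 missed it as well (0.137, 0.104, 0.103 and 0.101). The same held for WRKY22 at 1.24 (0.0727), GSTU16 at 0.72 (0.0649), Hsp70-2 at 0.66 (0.0791), GH3.9 at 0.44 (0.120), EXPA15 at -0.51 (0.103) and COR15B at -0.31 (0.0723).

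For several of these falls, single arrays of other groups moved as much. COR27 read 6.35 on A 2, against 4.26 to 4.47 on the other A arrays, and 4.20 on DMSO 4, against 6.40 to 7.35 on the other DMSO arrays. DMSO 4 was the lowest DMSO array, A 2 the highest A array and IAA plus B 1 the lowest IAA plus B array at 11 of the 25 named falls, at 2 of the 25 named rises and at 7.87% of all probe sets. Their part in the falls was not tested. With 4 arrays of other groups left out (A 2, DMSO 2, DMSO 4 and IAA plus B 1), none of which enters the difference itself, the fit gave COR27 an adjusted p of 1.46e-06 and AT4G16146 one of 1.95e-05. Leaving out arrays that lie apart within their groups narrows the shared spread, so these lower p-values are no separate support for the falls. With all arrays AT4G16146 stood at 0.0496, and it missed the threshold in 19 of 29 alternatives. LBD29 passed in all 29, and AT4G35200 and AT1G64405 in each of the 28 that retained them.

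The same compound was also given without auxin. The difference between A and DMSO shares no array with that between IAA plus A and IAA. The calls of both rest on a variance estimated from the arrays of every group. Across probe sets, which are not independent and share the array type and processing, both differences had a Pearson correlation of 0.882 and a Spearman correlation of 0.630. Of the 463 probe sets raised at least 2-fold with auxin, 461 were above 0 without it and 434 (93.7%) were called higher there too, beside 5.45% of all probe sets. Of the 78 lowered at least 2-fold, 74 were below 0 without auxin and 23 (29.5%) were called lower, beside 2.94% of all. In the reverse direction, A alone raised 487 probe sets at least 2-fold over DMSO (2.14%), and with auxin all 487 were above 0 and 459 were called higher, with a median of 1.55 beside 1.62 without auxin. A alone lowered 23 (0.101%), of which 22 were below 0 with auxin, 13 were called lower and the median was -0.97 beside -1.17. The size of this lowered set depended on single arrays: 103 probe sets qualified without A 2, 90 without DMSO 4, 68 without DMSO 2, 15 without DMSO 3 and 195 without the 4 arrays named above, with medians with auxin between -1.07 and -0.79.

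Among single genes with large rises the values were close in both settings for some and further apart for others. GRX480 read 10.43, 10.70, 10.01 and 10.30 with A, against 5.78, 5.44, 5.44 and 5.82 with DMSO, so that A gave a difference of 4.66 ± 0.20 with auxin and 4.74 ± 0.19 without. For CML37 these differences were 4.17 with and 4.52 without auxin, for UGT73B4 3.85 and 3.99, for Hop3 3.08 and 3.31, and for CCR2 3.48 and 3.19. They lay further apart for CML38 (3.00 with and 1.89 without auxin), AT5G14730 (3.107 and 4.15), AT4G27652 (2.93 and 1.98) and AT4G27654 (4.45 and 3.74), and none of these gaps passed the test of the difference. WAG2 had -0.74 with auxin, which did not pass, and fell by 1.43 (SE 0.24) without it.

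**Figure D5:**
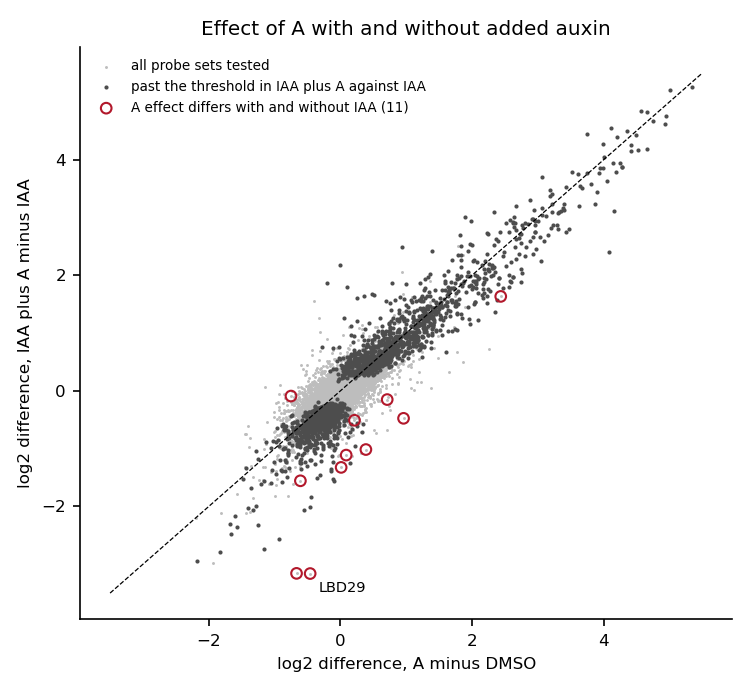
Log2 difference between IAA plus A and IAA against the difference between A and DMSO for all probe sets tested; the dashed line marks equal effects and circles mark the 11 probe sets whose effects differed past the threshold. The large rises follow the line, and LBD29 lies below it at -3.16 with auxin and -0.46 without.

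The effect of A with auxin minus its effect without auxin was tested in the same limma fit and passed at 11 probe sets (0.0484%), 10 lower (0.044%) and 1 higher (0.0044%). The count ran from 5 to 26 when single arrays were left out, with 5 without A 1, IAA 1 or IAA plus A 1 and 26 without IAA 3. LBD29 differed most (-2.70 ± 0.32, adjusted p = 0.00118), followed by the probe set without a gene that fell as far with auxin (-2.49 ± 0.31, the same adjusted p). Without auxin their signals were already low, with DMSO means of 6.07 and 5.18, which left less room for a fall. How far this shaped the difference between settings was not tested. AT2G28690, which IAA raised over DMSO by 1.46 ± 0.12, read 5.82, 5.64 and 5.92 in IAA plus A, against 7.51, 7.29, 6.79 and 6.88 in IAA, while its A and DMSO arrays all lay between 5.55 and 5.84. AT3G09280, raised by IAA over DMSO by 1.42 ± 0.12, fell with auxin (-1.02 ± 0.13) and rose without it (0.39 ± 0.12). That rise was close to the threshold (limma adjusted p = 0.0483), and its A and DMSO arrays overlapped. AT4G37295 had -0.48 with auxin, which did not pass, and rose without it (0.96 ± 0.15). AT5G64250 rose in both settings, by 1.63 ± 0.10 with auxin and 2.44 ± 0.09 without. The other members were 3 probe sets without a gene, AT5G51380 (-0.72) and, as the one higher value, AT3G21680 (0.66). LBD29, the probe set at -2.49, AT3G09280 and AT2G28690 missed the threshold in no alternative that retained them and AT4G37295 in 2, whereas each of the other 6 missed it in 10 to 23. LBD16 had a difference between the settings of -0.76 that did not pass (adjusted p = 0.764), so a dependence on auxin was not shown for it.

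Compound B was given with auxin at the same dose and time, so A and B were compared in auxin-treated seedlings as 1 pair. IAA plus A and IAA plus B differed at 642 probe sets (2.82%), with 440 higher (1.93%) and 202 lower (0.888%) in IAA plus A. Of 5 measured chaperones and co-chaperones 2 were higher with A and none lower, with a list median of 0.29: Hop3 by 1.71 ± 0.31 and AT5G48570 by 1.63 ± 0.34 (adjusted p = 0.00358 and 0.0101). Hsp70-2, Hop2 and Hop1 had 0.29, 0.14 and -0.32 and did not pass. ATHSP22.0, the one small heat shock protein matched by name, was higher by 1.92 ± 0.47 (adjusted p = 0.0293). AT1G71000 read 9.14, 9.04 and 8.16 in IAA plus A, against 5.19, 5.66 and 5.98 in IAA plus B (3.166 ± 0.30). AT1G22810 read 7.27, 7.40 and 7.28 in IAA plus A, against 4.56, 4.43 and 4.65 in IAA plus B (2.77 ± 0.14). Against IAA alone these loci rose by 3.63 and 3.195 with A, and had 0.46 and 0.42 with B; both comparisons use the same IAA arrays.

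Of 3 measured genes of the root hair and epidermis list 2 were higher in IAA plus A than in IAA plus B, EXPA7 and EXPA18, and TRY had -0.13 and did not pass. EXPA7 read 8.18, 8.25 and 7.84 in IAA plus A, against 6.20, 6.16 and 6.01 in IAA plus B (1.97 ± 0.23, adjusted p = 8.8e-05), and IAA alone read 8.29, 8.73, 8.27 and 8.31. EXPA18 was higher by 2.08 ± 0.33. Outside that list the largest differences between the compounds included AT1G34510 (3.61 ± 0.59), AT4G26010 (3.04 ± 0.42) and XTH26, a xyloglucan-remodelling enzyme (2.76 ± 0.64). None of these genes passed between IAA plus A and IAA. XTH26 also varied without any compound, with 4.38 on DMSO 2 and 7.63 to 8.38 on the other DMSO arrays.

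LBD29 was lower in IAA plus A than in IAA plus B by 1.34 (SE 0.25, adjusted p = 0.00483), with 6.66, 6.64 and 7.15 in IAA plus A, against 8.44, 8.13 and 7.92 in IAA plus B. LBD16 was lower by 1.08 (SE 0.19, adjusted p = 0.0029), and its IAA plus B arrays read 8.87, 8.94 and 8.98. Against IAA alone, IAA plus B also lowered LBD29 (-1.82 ± 0.23, limma adjusted p = 2.14e-05). The same comparison, which shares the IAA arrays, gave falls for AT1G64405 (-2.89), AT2G28690 (-1.66) and AT3G09280 (-0.93). AT4G37295 had -0.16 there and did not pass. AT3G26760 (-1.21 ± 0.20), AT2G41730 (-2.52 ± 0.30), AT2G32020 (-1.31 ± 0.29) and AT5G13200 (-1.29 ± 0.19) were also lower with A than with B. Of these, only AT3G26760 fell with A against IAA alone. AT2G32020 and AT5G13200 rose over IAA alone by 1.52 and 0.78 with A, and by 2.83 and 2.07 with B. AT2G41730, whose probe set can also bind similar transcripts, had 0.69 with A, which did not pass, and rose by 3.21 with B. The comparisons with IAA alone share the IAA arrays. For GRX480 the compounds differed by 0.08 with a 95% interval from -0.37 to 0.53, and for GH3.3 by -0.01, neither past the threshold. The number of differences between the compounds ranged from 243 to 810 when any one array was left out and was 2076 without the 4 arrays named above.

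Some responding genes lie side by side on a chromosome. Among 5849 pairs of adjacent protein-coding genes in the RefSeq TAIR10.1 annotation with both members measured, 221 pairs had at least 1 member called at least 2-fold higher, and in 9 pairs both were, where 1.93% of the 8872 genes in these pairs were called so. UGT73B4 and UGT73B5 form one such pair, AER and AT5G16980 another, and AT4G27652, AT4G27654 and AT4G27657 a run. CML38 and AT1G76640, AT5G07860 and AT5G07870, and AT2G32020 and AT2G32030 are further pairs. For falls of at least 2-fold, both members were called in 2 of 46 pairs, AT4G35200 with AT4G35210 and AT4G30650 with AT4G30660. Of the same 8872 genes, 0.39% were called at least 2-fold lower. Adjacent copies of one family can share probe sequences, and probe sets paired with several genes were not named, yet hybridisation between close copies was not tested.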

How the data were processed

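Signals were taken as deposited by the authors, on a log2 scale; the steps of summarisation and normalisation are not given in these sources. Array type (ATH1) and lot were the same for all arrays, per the file headers of the experiment information files. The table has 21 columns, each matched to a sample, and depth has no counterpart on arrays, where their number limits the precision.

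Group means were estimated jointly over the 21 arrays in limma 3.58.1 (R 4.3.3), with moderated variances following the mean signal (15 residual and 4.19 prior degrees of freedom), two-sided tests and Benjamini-Hochberg adjustment over 22746 probe sets. The fit was tested on simulated data with known changes. Gene names came from the platform table, updated through RefSeq: 13513 tested probe sets had 1 gene, 503 several and 8730 none in that table. Named genes were the 25 largest rises and falls past the threshold, called members of auxin lists, up to 4 called members of each other list (or its 2 largest differences where none was called), called differences between settings, the 5 largest called differences from IAA plus B in each direction, and the 6 auxin-induced genes highest in IAA plus B against B; other genes are given as examples of a stated set. The members and the 29 lists (1017 genes, 143 matched by symbol or synonym to a probe set with 1 gene) were chosen with earlier results of these data known. CCR2 of the clock list and RPS15 were dropped because RefSeq uses these symbols for other genes.

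Arrays with the same replicate number did not deviate together (correlations 0.0192, -0.0995 and -0.0398), so no pairing was used. Leaving out IAA 1 and IAA 2 together was chosen after seeing the data.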

Additional observations from a re-analysis of the deposited data

Results flagged for a closer look

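The effect of A with auxin minus its effect without auxin passed the threshold (limma, adjusted p at most 0.0405) at 11 probe sets. The differences were -2.70 for LBD29, -1.43 for AT4G37295, -1.40 for AT3G09280, -1.34 for AT2G28690, -0.80 for AT5G64250, -0.72 for AT5G51380 and 0.66 for AT3G21680, and -2.49, -1.20, -0.95 and -0.86 for 4 probe sets without a gene. With IAA 1 and IAA 2 left out, LBD29 (-2.28), the first of those without a gene (-1.91), AT4G37295 (-1.15), AT3G09280 (-1.29) and AT2G28690 (-1.05) still passed, and the other 6 did not.

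For 2 of the 114 named probe sets, 1 of the 4 IAA arrays lay apart from the rest by Dixon's criterion, which chance meets in about 1 of 20 groups. Both were IAA 2: PUB25 read 7.1 there and 6.69 to 6.75 on the other IAA arrays, and EXPA7 read 8.73 there and 8.27 to 8.31 on the others.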

How the results depend on the processing

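For IAA plus A against IAA, 2065 probe sets passed; the count was 4661 with only the arrays of these groups (1897 higher, 2764 lower, 128 at least 2-fold lower), 6670 with array weights (2457 higher, 4213 lower), 3758 with 4 arrays of other groups left out, namely A 2, DMSO 2, DMSO 4 and IAA plus B 1 (1617 higher, 2141 lower, 124 at least 2-fold lower), and 1090 without IAA 1 and IAA 2 (772 higher, 318 lower, 35 at least 2-fold lower), of which 1035 were among the 2065. The replicate block gave 2576, with 1278 higher and 1298 lower. The difference between settings passed at 5 probe sets in the upper 60% by signal, 6 with own arrays, 21 with array weights, 19 with the replicate block, 5 without the 4 arrays and 7 without IAA 1 and IAA 2. IAA plus A and IAA plus B differed at 3518 with array weights and 2076 without the 4 arrays. The auxin-induced set had a median of 0.20 without IAA 1 and IAA 2. The A-raised set had 1.41 without the 4 arrays and 1.09 when chosen at 1.5-fold, and the A-lowered set -1.11 with the replicate block and -0.59 at 1.5-fold. The cause of these shifts was not tested.

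Leaving out each array in turn gave 1225 to 2467 probe sets past the threshold, 787 to 1216 higher, 430 to 1251 lower, 423 to 476 at least 2-fold higher and 54 to 101 at least 2-fold lower. The lowest counts came without an IAA plus A array (1225, 1264 and 1345), and the highest without A 2. In these runs the settings differed at 5 to 26 and the compounds at 243 to 810, and the set medians ran from -0.17 to 0.04 (auxin-induced), 1.49 to 1.62 (A-raised) and -1.21 to -0.75 (A-lowered).

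Of the 84 named probe sets past the threshold, 64 passed in all 29 alternatives, 76 without IAA 2 and 65 without IAA 1 and IAA 2. Named genes turned sign only where they were not called: YUC6 to -0.0361 with array weights, and ARR15 to 0.0080 after quantile scaling and 0.0075 with the replicate block. Without IAA 1 and IAA 2, YUC6 turned to -0.0591, AT5G14520 to 0.0157, GH3.3 to 0.171, HAT2 to 0.194, AT2G18010 to 0.0946 and a probe set without a gene to 0.0026. With single arrays left out, YUC6 ran from -0.0038 to 0.1807, ARR15 from -0.0874 to 0.0574, AT5G14520 from -0.0903 to 0.0217, GH3.3 from -0.1398 to 0.0337 and HAT2 from -0.2097 to 0.0074. Quantile scaling moved the median of all probe sets by 0.0028. A block for scan or hybridisation batch was not run, since the files used here give no batch.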
